A study of Homo sapiens with 24 samples.

Results

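Notch signalling was followed through 10 genes: the receptors NOTCH1, NOTCH2 and NOTCH3, the DNA-binding factor RBPJ, the coactivators MAML1, MAML2 and MAML3, and the target genes DTX1, HES1 and NRARP. They were taken by symbol from the authors' 2 deposited comparison tables. All 10 are among the 58780 genes of the TPA table, and 9 are in the DMSO table, which does not list DTX1. Each listed member was tested and adjusted there. The groups are shPRKCQ cells, which carry a hairpin against PRKCQ, and NTC cells, which carry a non-targeting control, each in MyLa, a line labelled mycosis fungoides, and HuT 78, a line labelled Sézary syndrome. Both are cutaneous T cell lymphoma lines. Treatment lasted 24 h with the phorbol ester TPA at 10 ng/ml, a direct activator of protein kinase C, or with its vehicle DMSO. Each combination of line, hairpin and treatment has 3 libraries. Each table therefore sets 6 shPRKCQ libraries against 6 NTC libraries, with both lines merged. Knockdown cells received doxycycline at 1 µg/ml for at least 72 h before treatment. Whether NTC cells received it is not stated, so the drug and the hairpin cannot be told apart if they did not.

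PRKCQ encodes protein kinase C theta, a kinase downstream of the T cell receptor that acts on NF-kappaB and NFAT signalling. In the authors' deposited tables PRKCQ had log2 fold changes of -2.08 in TPA and -2.11 in DMSO. Those signs are the basis for reading a negative value as lower in shPRKCQ cells, since the tables do not state their direction. Levels per library, depth and line are not analysed here, and a change in 1 line alone cannot be told apart from a smaller change in both. In bulk RNA a change in the mix of cells and a change per cell cannot be told apart either. The T cell label could not be checked by level. All 10 T cell markers examined have an adjusted p in TPA, and 4 of the 10 in DMSO. CD5, at 0.56 in the authors' deposited table for TPA, was the single T cell marker with an unadjusted p under 0.05; 9 of the 10 were positive in TPA and 1 of the 4 in DMSO. Of markers of other cells, the authors' deposited table for TPA has CD79B at -1.10, PDGFRB at -1.02 and COL1A2 at 0.80, each with an unadjusted p under 0.05 and none called. Their lists did not move 1 way in TPA: 4 of 5 B cell markers were positive, as were 4 of 7 epithelial or stromal markers and 3 of 4 myeloid ones. Their part in the values below was not tested.

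Notch receptors are membrane proteins that a ligand on a neighbouring cell exposes to cleavage by ADAM proteases and then by gamma-secretase. The freed intracellular domain enters the nucleus and joins RBPJ, which is already bound to DNA, and a Mastermind-like coactivator of the MAML family. This complex switches on targets such as HES1, a transcriptional repressor, and NRARP, an ankyrin repeat protein that feeds back on the pathway. In T cells Notch signals guide lineage commitment in the thymus, and activating mutations of NOTCH1 drive T cell acute lymphoblastic leukaemia.

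The sequences below are shown because NOTCH1 was the single member called and HES1 is the textbook target of the RBPJ complex. They are the 250 bases before and 50 bases after a gene's start, from RefSeq (GRCh38.p14), 5′ to 3′ on the gene's own strand. Capitals mark TGGGAA, the core of the RBPJ motif, searched on both strands.
HES1, chr3:194135898-194136197, plus strand: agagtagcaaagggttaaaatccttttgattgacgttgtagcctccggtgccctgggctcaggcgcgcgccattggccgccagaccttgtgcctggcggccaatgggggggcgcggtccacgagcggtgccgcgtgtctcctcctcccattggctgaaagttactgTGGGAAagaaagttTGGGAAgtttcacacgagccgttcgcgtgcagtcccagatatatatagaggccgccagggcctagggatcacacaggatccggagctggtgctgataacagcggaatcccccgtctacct
NOTCH1, chr9:136545999-136546298, minus strand: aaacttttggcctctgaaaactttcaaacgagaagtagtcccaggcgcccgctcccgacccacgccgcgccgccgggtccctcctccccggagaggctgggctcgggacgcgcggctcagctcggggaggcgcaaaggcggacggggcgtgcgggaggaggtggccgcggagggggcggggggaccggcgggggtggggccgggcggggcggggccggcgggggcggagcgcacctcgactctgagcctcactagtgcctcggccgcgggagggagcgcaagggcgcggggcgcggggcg

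The HES1 window holds TGGGAA at 2 positions, both on the gene's strand, which begin at -84 and -70 from the start and leave 8 bases between them. No match is in the NOTCH1 window, which has a GC content of 77%. The RefSeq start of NOTCH1 differs from that in GENCODE, whose coordinates are given below. The NOTCH1 window lies wholly beyond the 5′ end of the GENCODE gene. RefSeq windows were matched for 9 of the 10 members. Of those 9, with 13 windows in all, HES1 and RBPJ hold TGGGAA, RBPJ in 1 of its 5 windows and there on opposite strands. The shares that follow count windows, not genes. Among all 35116 windows of the same length 24.0% hold the motif, and 3.80% hold it at 2 or more positions. The same search for TGANTCA, the AP-1 motif, and TGGAAA, an NFAT core, found each in 1 RBPJ window and in no window of another member. Those motifs occur in 7.71% and 20.7% of all windows. Matches of different motifs lay in different windows of RBPJ.

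The first comparison asks which Notch genes differ between shPRKCQ and NTC cells with TPA present. Loss of PRKCQ and other effects of the hairpin cannot be told apart here. The receptor NOTCH1 was lower in shPRKCQ cells in value, at 79.6% of the NTC level (95% interval 69.8% to 90.8%), computed from the authors' deposited table, but was not called. Intervals and standard errors are implied ones, worked back from each gene's fold change and p-value. If the TPA fold changes were shrunken, which is not known, those of TPA may not compare in width with those of DMSO. A call means that the authors' adjusted p, from a processing in which DESeq2 is listed, is under 0.05. By that rule 0 of 10 members were called in TPA, where 22 of 19417 genes, or 0.113%, were (0.0876% lower). At an unadjusted p under 0.05 there were 2 of 10, against 3.99% of all genes. These were NOTCH1 in the lower direction, which took 1.93% of genes, and NOTCH3 in the higher one, which took 2.05%. The second comparison asks the same with vehicle. There NOTCH1 fell to 75.7% of the NTC level (66.2% to 86.6%), computed from the authors' deposited table. It was the single call among 9 members, where 14 of 13007 genes, or 0.108%, were called and 0.0769% were called lower. At an unadjusted p under 0.05 there were again 2 members, against 3.04% of all genes. They were NOTCH1 in the lower direction, with 1.67% of genes, and NRARP in the higher one, with 1.37%. The TPA and DMSO tables share no library.

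**Figure D1:**
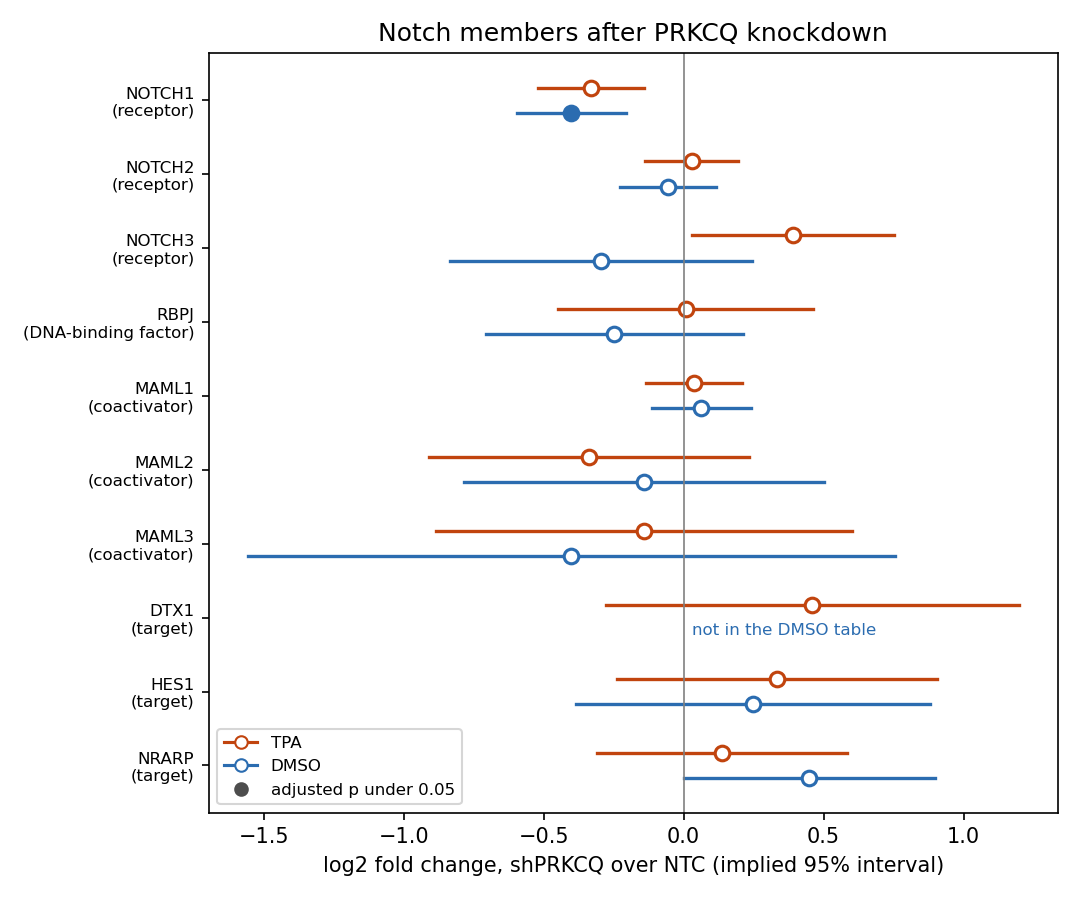
Log2 fold change of shPRKCQ over NTC (x axis) for the 10 members (y axis, by role), TPA above DMSO; points are the authors' values, bars the 95% intervals implied by their p-values, and filled points have an adjusted p under 0.05. The filled point is NOTCH1 in DMSO at -0.40; the NOTCH1 bar also lies below 0 in TPA, while NOTCH3 lies at 0.39 in TPA and -0.30 in DMSO.

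Of the receptors, NOTCH1 fell in DMSO and no other was called. NOTCH1 (ENSG00000148400.10; GRCh38 chromosome 9, 136494433 to 136545786, on the minus strand) was given a log2 fold change of -0.33 by the authors' deposited table for TPA (implied SE 0.0966, unadjusted p = 0.000652, adjusted p = 0.207). In DMSO the authors' deposited table gave it -0.40 (implied SE 0.0990, unadjusted p = 5.06e-05, adjusted p = 0.0483). By p-value it was the 61st of 19417 genes in TPA and the 12th of 13007 in DMSO. Its fold change was not extreme in size, since 5.96% of genes in TPA and 2.22% in DMSO had a lower one. Its implied standard error was among the smaller ones: 93.5% of genes in TPA and 90.5% in DMSO had a larger one. The call in DMSO lies close to the threshold. Adjusting without histone genes and RNAs that lack a poly(A) tail removed it (adjusted p = 0.0519), as did also requiring an absolute log2 fold change of 0.5 or more. With z-values divided by their robust SD over all genes, NOTCH1 was called in both treatments (adjusted p = 0.0150 in TPA and 7.99e-05 in DMSO). That setting raised calls over all genes as well, to 114 in place of 22 in TPA and to 108 in place of 14 in DMSO.

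NOTCH2 (ENSG00000134250.19, chromosome 1, 119911553 to 120069626, minus strand), the receptor best known in B cells, was at 0.03 in TPA and -0.06 in DMSO in the authors' deposited tables. Its implied SEs were the smallest of the members in both treatments. The 95% intervals ran from 90.8% to 114.5% of the NTC level in TPA and from 85.5% to 108.4% in DMSO, computed from the authors' deposited tables. NOTCH2 shares near-identical sequence with NOTCH2NLA, a partial copy of its 5′ end, so reads could be divided between them. NOTCH2NLA was at -0.02 in TPA and -0.01 in DMSO in the authors' deposited tables.

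NOTCH3 (ENSG00000074181.8, chromosome 19, 15159038 to 15200981, minus strand) is a further receptor that is itself a Notch target in T cell leukaemia. It had opposite signs: 0.39 in TPA (unadjusted p = 0.0345) and -0.30 in DMSO (unadjusted p = 0.284) in the authors' deposited tables. These are 131.0% and 81.5% of the NTC level, with 95% intervals of 102.0% to 168.3% in TPA and 56.0% to 118.6% in DMSO, computed from the authors' deposited tables. Neither was called, both adjusted p being 1.00. NOTCH4, the fourth receptor and not a member, was at -0.05 in TPA and -0.29 in DMSO in the authors' deposited tables (unadjusted p of 0.832 and 0.251). In DMSO all 4 receptors therefore had negative values and in TPA 2 of the 4 did.

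**Figure D2:**
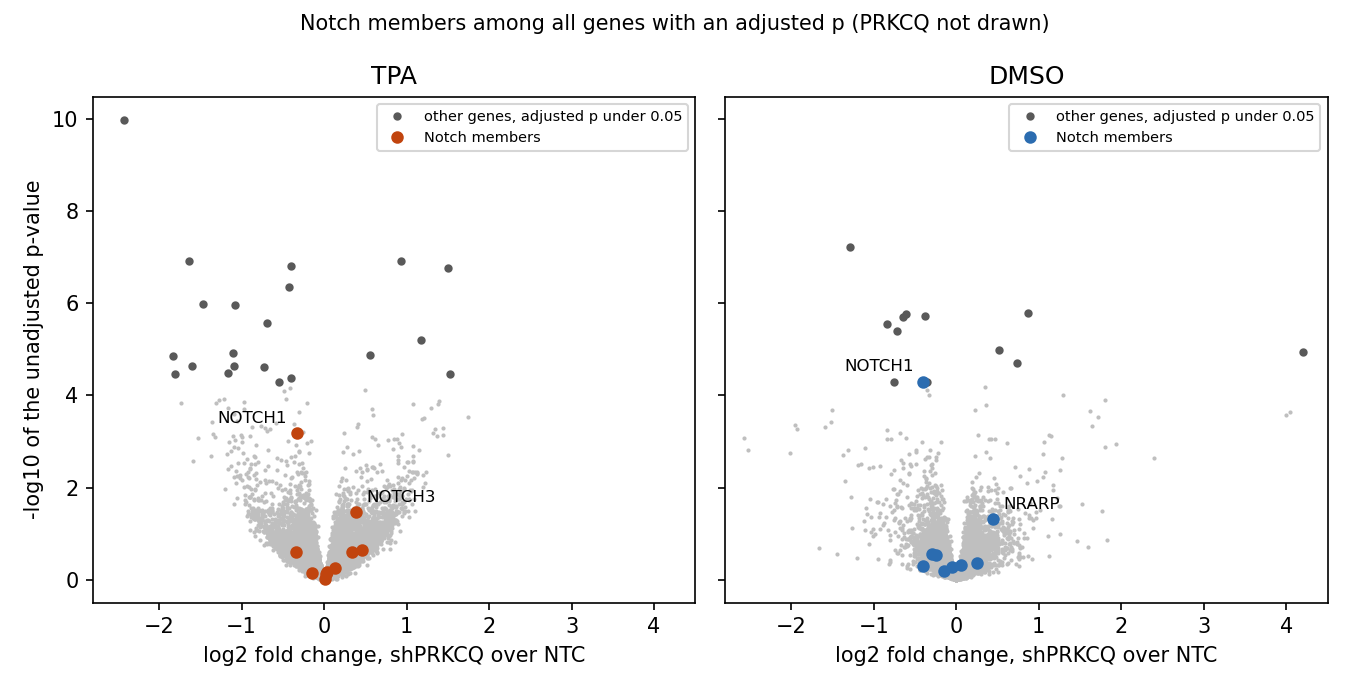
Unadjusted p-value on a -log10 scale (y axis) against log2 fold change of shPRKCQ over NTC (x axis) for all genes with an adjusted p except PRKCQ, TPA left and DMSO right; coloured points are Notch members and dark points other called genes. NOTCH1 stands above the other members in both panels, at the level of the last called genes in DMSO and below the called genes in TPA.

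The nuclear complex gave no call in either treatment. RBPJ (ENSG00000168214.20, chromosome 4, 26163455 to 26435131, plus strand), which ties the receptor's intracellular domain to DNA, was at 0.0071 in TPA and -0.25 in DMSO in the authors' deposited tables. Its intervals, 73.3% to 137.7% of the NTC level in TPA and 61.2% to 115.9% in DMSO, leave room for changes in either direction, computed from the authors' deposited tables. Processed copies of RBPJ exist in the genome and could take some of its reads.

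The 3 Mastermind-like coactivators differed mainly in how precisely they were measured. MAML1 (ENSG00000161021.12, chromosome 5, 179732850 to 179777286, plus strand) was at 0.04 in TPA and 0.06 in DMSO in the authors' deposited tables, with implied SEs of 0.0878 and 0.0899. MAML2 (ENSG00000184384.13, chromosome 11, 95976598 to 96343180, minus strand) was at -0.34 in TPA and -0.14 in DMSO in the authors' deposited tables, with implied SEs of 0.292 and 0.328. MAML3 (ENSG00000196782.12, chromosome 4, 139716753 to 140154184, minus strand) was at -0.14 in TPA and -0.40 in DMSO in the authors' deposited tables. The DMSO value of MAML3 is as low as that of NOTCH1, yet its implied SE is 0.590 and its unadjusted p 0.496. Only 1.36% of genes in DMSO had a larger SE than MAML3, and its interval runs from 34.0% to 168.7% of the NTC level (from the authors' deposited table).

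The 3 target genes among the members, HES1, NRARP and DTX1, had positive values wherever measured, none of them called. HES1 (ENSG00000114315.3, chromosome 3, 194136145 to 194138732, plus strand), whose promoter window holds TGGGAA, was at 0.33 in TPA and 0.25 in DMSO in the authors' deposited tables (unadjusted p = 0.251 and 0.442). As a share of the NTC level that is 126.1% (84.9% to 187.4%) in TPA and 118.8% (76.6% to 184.2%) in DMSO, computed from the authors' deposited tables. NRARP (ENSG00000198435.3, chromosome 9, 137300482 to 137302251, minus strand) was at 0.14 in TPA and 0.45 in DMSO in the authors' deposited tables (unadjusted p = 0.548 and 0.0494). Its DMSO interval, 100.1% to 186.3% of the NTC level (from the authors' deposited table), starts just above the NTC level, and its adjusted p was 1.00. DTX1 (ENSG00000135144.7, chromosome 12, 113056709 to 113098028, plus strand), the E3 ubiquitin ligase Deltex, was at 0.46 in the authors' deposited table for TPA (implied SE 0.377, unadjusted p = 0.222). Its value has no counterpart in DMSO.

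Over the members, values in the authors' deposited tables ran from -0.34 to 0.46 in TPA, with 7 of 10 positive and a median of 0.03. In DMSO they ran from -0.40 to 0.45, with 3 of 9 positive and a median of -0.14. Medians over all genes tested were 0.011 in TPA and 0.0075 in DMSO, with 53.0% and 52.3% of genes positive. In each treatment NOTCH1 had a negative value and HES1 and NRARP had positive ones, as did DTX1 in TPA. Since NOTCH1 in DMSO was the single value past the threshold, these signs only describe values.

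The third comparison asks whether TPA altered the effect of the knockdown. The difference of the log2 fold changes, TPA minus DMSO, was divided by the implied standard errors of both. Fold changes of the TPA table may be shrunken, so the sizes of the differences depend on the scales of the tables being alike. A difference of z-values needs no common scale but mixes the size of an effect with its precision. It passed 0 members and also 0 of all genes, so it cannot set the members apart. By the difference of log2 fold changes, 0 of 9 members passed at an adjusted p under 0.05, as did 0 of 13007 genes, or 0%. At an unadjusted p under 0.05 there was 1 of 9 members, against 57 genes, or 0.438%. That member was NOTCH3, with a difference of 0.69 ± 0.33 (implied SE; unadjusted p = 0.0390, adjusted p = 1.00), the 43rd of 13007 by p-value. The z-values of the difference had a robust SD of 0.587. After division by it, to allow for this narrow spread, NOTCH3 had an adjusted p of 0.131 and 18 genes passed.

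For NOTCH1 the difference was 0.07, with a 95% interval from -0.20 to 0.34 (unadjusted p = 0.604). Its call in DMSO alone is therefore not shown to be a difference from TPA, and the interval reaches a difference about as large as the TPA fold change itself. NRARP had a difference of -0.31 (-0.95 to 0.32) and RBPJ one of 0.25 (-0.39 to 0.90). Of the 9 members 6 kept their sign, and NOTCH2, NOTCH3 and RBPJ did not; over all genes tested in both treatments, 8357 of 13007 kept it.

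**Figure D3:**
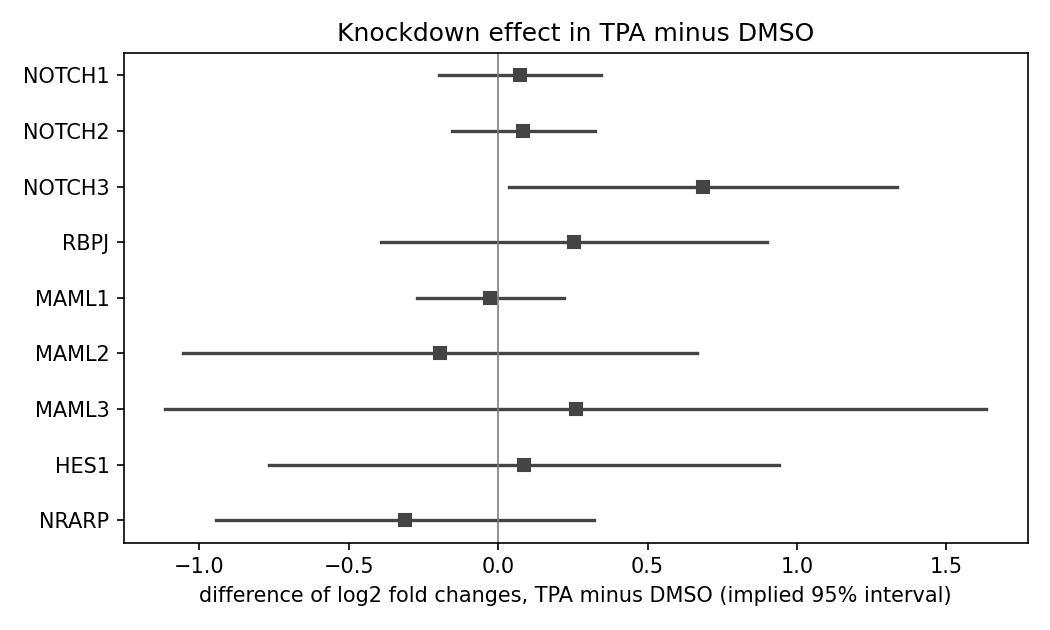
Difference of log2 fold changes of shPRKCQ over NTC, TPA minus DMSO (x axis), for the 9 members in both tables (y axis); squares are differences and bars their implied 95% intervals. The bar of NOTCH3, from 0.03 to 1.34, is the single one that does not include 0, and NOTCH1 is at 0.07.

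Around these genes the wider pathway was read from 78 genes in 8 lists by role, the members included. In TPA 74 had an adjusted p and 0 were called by the authors' values, with 4 at an unadjusted p under 0.05, beside 0.113% and 3.99% of all genes. In DMSO 64 had one and NOTCH1 was the single call, again with 4 at an unadjusted p under 0.05, beside 0.108% and 3.04% of all genes. Without the members, 2 of 64 genes in TPA and 2 of 55 in DMSO had an unadjusted p under 0.05, and 0 were called. Medians were 0.03 over the 74 in TPA and -0.03 over the 64 in DMSO, in the authors' deposited tables, with 46 and 30 positive values.

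Among ligands, JAG2, one of the Jagged ligands, was at -0.46 in TPA (unadjusted p = 0.0167) and -0.32 in DMSO (unadjusted p = 0.112) in the authors' deposited tables. The ligand list had medians of 0.02 over 6 genes in TPA and 0.12 over 3 in DMSO. Genes of receptor processing, which include ADAM10 and the gamma-secretase subunits, were close to 0, with all 9 between -0.08 and 0.13 in TPA and between -0.22 and 0.16 in DMSO in the authors' deposited tables. None of the 9 had an unadjusted p under 0.05.

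Of the genes that add or extend sugars on Notch receptors, LFNG, the Lunatic fringe glycosyltransferase, was at 0.57 in TPA (unadjusted p = 0.0337) and -0.08 in DMSO (unadjusted p = 0.792) in the authors' deposited tables. Its TPA minus DMSO difference of 0.65 did not pass (unadjusted p = 0.104). The 6 genes of this list had medians of 0.04 in TPA and -0.09 in DMSO. FBXW7, the ubiquitin ligase subunit that marks the Notch intracellular domain for degradation, was at -0.12 in TPA (unadjusted p = 0.20) and -0.26 in DMSO (unadjusted p = 0.00479, adjusted p = 0.669) in the authors' deposited tables. Endocytosis and ubiquitination genes had medians of 0.05 over 13 genes in TPA and -0.06 over 10 in DMSO.

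The nuclear complex and its coactivators had medians of -0.06 in TPA and -0.08 in DMSO, over 9 genes in each. Corepressors had medians of 0.03 over 12 genes in TPA and 0.01 over 11 in DMSO. None of either list was called or, in these treatments, had an unadjusted p under 0.05. Target genes had medians of 0.11 in both treatments, over 15 genes in TPA with 11 positive and over 12 in DMSO with 9 positive. Among them BCL2, the survival factor, was at 0.11 in TPA (unadjusted p = 0.684) and -0.75 in DMSO (unadjusted p = 0.0106, adjusted p = 1.00) in the authors' deposited tables. Its difference of 0.86 ± 0.40 (implied SE) did not pass (unadjusted p = 0.0301, adjusted p = 1.00).

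**Figure D4:**
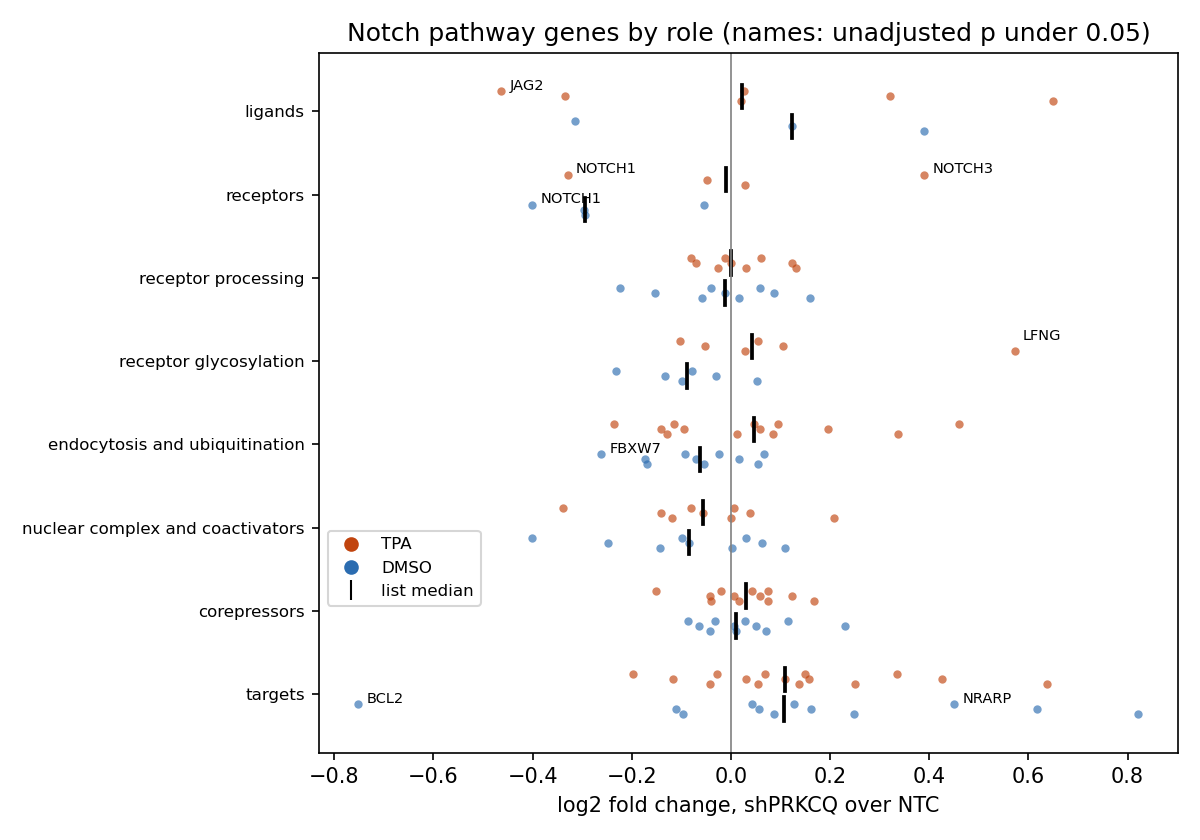
Log2 fold change of shPRKCQ over NTC (x axis) for the wider Notch pathway by role (y axis), TPA above DMSO; each point is 1 gene with an adjusted p, black bars are list medians, and genes with an unadjusted p under 0.05 are named. Receptor processing genes lie close to 0, the receptors in DMSO all lie below 0, and BCL2 in DMSO lies apart at -0.75.

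The surroundings of the members were read from GENCODE release 29 on GRCh38, which holds every gene identifier of both tables. NOTCH1 and NRARP lie on chromosome 9, 754.7 kb apart. Within 50 kb of the 10 members are 52 other genes, of which 36 have a p-value in TPA and 14 in DMSO. Of either, 0 had an unadjusted p under 0.05, beside 3.99% of all genes in TPA and 3.04% in DMSO. Some of the 36 have no adjusted p. With so few genes at those shares, the 0 does not show that the surroundings were unchanged. NALT1 is a non-coding gene read in the opposite direction. It begins 426 bases beyond the GENCODE 5′ end of NOTCH1, inside the RefSeq window of NOTCH1 shown above. NALT1 was at 0.64 in the authors' deposited table for TPA (unadjusted p = 0.0864) and is not in the DMSO table. AL592301.1, which overlaps NOTCH1 on the opposite strand, was at 0.04 in the authors' deposited table for TPA (unadjusted p = 0.811). Libraries were strand-specific, per the labels' protocols; whether strand was used in counting is not given in the sources used here.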

How the data were processed

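Poly(A)-selected, strand-specific RNA-seq libraries numbered 24, in 8 groups of 3 by line, hairpin and treatment. GRCh38, DESeq2 1.18.1, RSEM 1.3.0 and STAR 2.5.3a stand in the submitters' processing notes, with no role given; the model is not given in the sources used here. Per the file headers, the authors deposited for each gene its p-value, raw and adjusted, and its log2 fold change. The authors' adjusted p-values differed from a Benjamini-Hochberg adjustment by a relative 0.00451 at most in TPA and 0.00235 in DMSO. A z-value came from p and sign, an implied SE from fold change over z, and 95% intervals from a normal distribution. TPA fold changes may have been shrunken, as 2910 genes share 1 value, so the scales of the tables may differ. The planned description of the authors' values was used, with no count test. Differences take the tables as independent, adjusted over 13007 genes. Both tables hold the same lines and the same knockdown, so effects of line or hairpin may be shared between them. The z-values of the difference had a robust SD of 0.587, against 0.838 in TPA and 0.756 in DMSO. The independence was not tested. The p-values rest on libraries the labels call independent replicates. Whether the model held the line is not stated, so the spread they measure may include the difference between the lines. Depth is unknown.

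The members and lists were chosen with earlier results of these data known. Named were all members, PRKCQ, and listed pathway genes with an unadjusted p under 0.05 in either table; NOTCH4, NOTCH2NLA, NALT1, AL592301.1 and the markers named were chosen after their values were seen. Alternatives were other thresholds, other gene sets for adjustment, rescaled z-values and a minimum fold change. Calculations ran in Python 3.11.15 with pandas 2.3.3, scipy 1.17.1 and numpy 2.4.6.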

Additional observations from a re-analysis of the deposited data

How the results depend on the processing

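No paired analysis was possible because values of single libraries are not analysed here; leaving out replicates was not run for the same reason. Alternatives for the wider lists and the difference of z-values were chosen after seeing the data. Members called in DMSO numbered 0 in place of 1 at an adjusted p under 0.01, without non-polyadenylated and histone genes (NOTCH1 at 0.0519) and with an absolute log2 fold change of 0.5 or more, and so did the wider pathway genes; the other alternatives for members kept NOTCH1. With z-values divided by their robust SD (0.838 in TPA, 0.756 in DMSO), NOTCH1 was 1 call in TPA among members and wider genes (adjusted p = 0.0150), and in DMSO the wider calls were 2, NOTCH1 and FBXW7 (adjusted p = 0.0266). Calls over all genes were then 114 in TPA and 108 in DMSO, in place of 22 and 14. They were 10 and 8 at an adjusted p under 0.01; in TPA they were 39 at an adjusted p under 0.1 and 8 over genes with a p-value in both tables. For the difference between TPA and DMSO, 0 members passed under each alternative run. Over all genes 18 passed with rescaled z-values and 0 under the other alternatives, so the 0 does not set the members apart. The cause was not tested. What depth limits is unknown.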
